A study of Mus musculus with 3 samples.

Results

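The 10 immediate early genes described here are Fos, Fosb, Jun, Junb, Egr1, Btg2, Atf3, Rhob, Ier2 and Dusp1. They were taken by name from the 17551 genes of a single-cell table of mouse brain cells, and all 10 of 10 were present in it. The study profiled 4 brains of female C57BL/6 mice aged 2 to 3 months, some naive and some bearing metastases that grew from E0771 cells, a mouse mammary carcinoma line, injected through the carotid artery about 2 weeks before. Every brain was perfused, digested with a papain kit and enriched on a Percoll gradient, then stained with the same 6 antibody tags and with 1 hashtag of its own, before all were pooled for one 10x Genomics 3′ run. The sources used here do not say which hashtags marked naive and which marked metastasis-bearing brains, so the 4 brains served as replicates of one design and no comparison of the 2 conditions was made. No genotype other than the strain is given in the labels, and the injected line is one tumour line in one strain.

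Immediate early genes are transcribed within minutes of a stimulus, without new protein synthesis, from promoters that are already bound by factors awaiting phosphorylation. Fos, Fosb, Jun, Junb and Atf3 encode basic leucine zipper proteins that pair into the AP-1 and ATF dimers. Egr1 encodes a zinc finger transcription factor, Btg2 an antiproliferative regulator of mRNA decay, Ier2 a nuclear response protein, Rhob a short-lived small GTPase, and Dusp1 a phosphatase that switches off MAP kinases. In the brain these genes are known as markers of activity and injury, and enzymatic digestion of fresh tissue is known to induce them as well.

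The promoters are shown because the 10 genes are grouped by the way they are induced. A RefSeq table for GRCm38.p6 held the promoters of 8 of the 10 genes, and those of Egr1 and Ier2 were not used here. The core of the cyclic AMP response element, TGACG read on both strands, lay within the 250 bases before the start of 6 of these 8 genes (Fos, Fosb, Junb, Btg2, Atf3 and Dusp1), and in 17.8% of 32851 promoters of the same length. The whole palindrome TGACGTCA, which contains the core, stood before Btg2 and Dusp1 and in 1.55% of all promoters. A TATAAA box on the gene's own strand stood before Fos alone of the 8, 7.59% of all promoters having one. The AP-1 site TGANTCA was in 0 of 8 and in 6.75% of promoters, and the CArG box, to which serum response factor binds, in 0 of 8 and 1.47%. Each of these matches is a description of letters in a window, not a test of binding. Bases further upstream than 250 were not searched, so a count of 0 of 8 does not mean that these genes lack the site. The stretches below are read 5′ to 3′ on the strand of the gene, with the response element core and the TATA box in capitals. Fos lies on the plus strand (chr12:85473640-85473889), and Junb (chr8:84978749-84978998), Btg2 (chr1:134079156-134079405), Dusp1 (chr17:26508473-26508722) and Rhob (chr12:8500010-8500259) lie on the minus strand.
Fos: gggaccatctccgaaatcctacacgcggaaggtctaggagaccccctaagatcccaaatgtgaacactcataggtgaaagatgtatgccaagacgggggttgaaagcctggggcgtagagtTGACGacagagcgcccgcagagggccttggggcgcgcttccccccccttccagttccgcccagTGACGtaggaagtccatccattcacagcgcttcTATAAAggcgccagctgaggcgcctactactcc
Junb: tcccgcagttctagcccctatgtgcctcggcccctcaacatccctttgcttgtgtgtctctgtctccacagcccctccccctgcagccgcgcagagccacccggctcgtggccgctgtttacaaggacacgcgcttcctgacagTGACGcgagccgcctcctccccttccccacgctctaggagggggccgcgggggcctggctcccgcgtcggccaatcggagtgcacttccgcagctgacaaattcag
Btg2: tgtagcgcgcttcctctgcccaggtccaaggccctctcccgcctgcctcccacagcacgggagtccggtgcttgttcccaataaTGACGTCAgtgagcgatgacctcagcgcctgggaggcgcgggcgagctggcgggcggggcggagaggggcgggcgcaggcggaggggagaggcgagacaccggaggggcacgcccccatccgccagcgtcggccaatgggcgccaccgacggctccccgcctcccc
Dusp1: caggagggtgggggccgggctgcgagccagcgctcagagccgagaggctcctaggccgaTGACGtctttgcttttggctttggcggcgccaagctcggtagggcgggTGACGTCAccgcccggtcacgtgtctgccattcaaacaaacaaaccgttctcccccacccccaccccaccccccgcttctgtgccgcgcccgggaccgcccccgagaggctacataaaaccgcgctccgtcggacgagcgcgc
Rhob: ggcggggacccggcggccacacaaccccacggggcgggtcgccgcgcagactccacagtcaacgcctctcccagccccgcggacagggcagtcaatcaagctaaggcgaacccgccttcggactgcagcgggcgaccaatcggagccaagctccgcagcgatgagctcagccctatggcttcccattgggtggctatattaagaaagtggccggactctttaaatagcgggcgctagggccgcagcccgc
In Fos the 2 cores span bases -129 to -125 and -66 to -62 before the start and the TATA box spans -33 to -28. The palindrome spans -166 to -159 in Btg2 and -143 to -136 in Dusp1. Neither the core nor a TATAAA box is in this window of Rhob, and the same holds for Jun.

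The table held 4668 cells, with 844, 410, 1385 and 2029 cells in the brains with hashtags 1 to 4, and 2495 to 43038 UMIs (unique molecular identifiers, each one captured transcript) per cell. All values below are UMIs per 10000 UMIs of the cell, given as means over a brain's cells, and are compared within a gene only. The authors' 11 clusters carry numbers, and they were checked against marker lists. Cluster 1 (880 cells) had 8 of 9 choroid plexus markers, cluster 4 (295 cells) 9 of 9 endothelial markers and cluster 9 (162 cells) 6 of 6 smooth muscle markers. Cluster 3 (404 cells, 99.8% with the CD45 tag) had 10 of 10 microglia markers. It was led by macrophage genes such as Ctss and C1qc but held lymphocytes as well. Cluster 6 (223 cells, 91.0% tagged) had 9 of 9 neutrophil markers and was led by the granule genes Camp and Ngp of neutrophils. Clusters 0, 2, 7 and 10 shared the homeobox gene Rhox5, at a mean of 3.35 to 4.94 per 10000, and were left unnamed. So were cluster 5, with a median of 14.8% mitochondrial UMIs, and cluster 8. Some of these did have markers of a type, namely 5 of 6 of fibroblasts in cluster 8 and 4 of 9 of choroid plexus in cluster 5. Cluster 10 had 5 of 5 erythroid markers. Its haemoglobin transcript Hbb-bs was at 756.8 per 10000 in 8 cells with hashtag 1, but at 1.37 and 1.52 with hashtags 3 and 4. The choroid plexus transcript Ttr was found in every cluster, at 104 to 258 per 10000 in the brains of clusters 3 and 10 and at 2993 to 3374 in those of cluster 1. Doublets were not called, and 0 barcodes occurred more than once.

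All 10 genes had their highest mean level in the macrophage-led cluster 3 or in the endothelial-like cluster 4. Of all 9355 genes seen in at least 5% of cells, 28.5% were highest in one of these 2 clusters. The authors built the clusters from the same RNA, so these differences are described and carry no test. Cluster 3 was above the choroid plexus-like cluster 1, the smooth muscle-like cluster 9 and cluster 8 for 10 of 10 genes in each of the 4 brains, and above the granulocyte-led cluster 6 for 10 of 10 genes in each of the 3 brains with at least 10 such cells. With UMIs summed over cells in place of cell means, 9 of 10 were above cluster 9 in each brain and Rhob in 3 of 4, and the other counts were the same. The share of all genes that would meet such a count is not given for these or the later pairs of clusters. These counts therefore describe the 10 genes only.

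Fos, the AP-1 subunit most used as a marker of recent stimulation, stood in cluster 3 at 24.5, 29.0, 22.9 and 17.9 per 10000 in the brains with hashtags 1 to 4. Its level in cluster 4 was 25.2, 22.6, 14.7 and 8.25, so that the 2 clusters overlapped. In the choroid plexus-like cells Fos was at 8.39, 9.39, 5.67 and 6.66, and in cluster 0 at 4.44, 6.78, 1.27 and 1.41. Every brain thus had more Fos in cluster 3 than in cluster 1, and more in cluster 1 than in cluster 0. The means ran from 23.6 ± 4.58 (SD, n = 4) in cluster 3 over 17.7 ± 7.73 (SD, n = 4) in cluster 4 and 13.5 ± 7.40 (SD, n = 4) in cluster 9 down to 1.19 ± 0.0942 (SD, n = 2) in cluster 10. For none of the 10 neighbouring pairs in this order was the gap larger than the larger of their SDs.

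For its partner Jun the gap between the means of the 2 leading clusters, 5.64, was also within the larger SD, 8.02. Jun was at 21.0, 21.0, 8.96 and 5.62 per 10000 in cluster 3 and at 12.97, 9.98, 6.27 and 4.74 in cluster 4, higher in cluster 3 within each brain although the ranges of the 2 clusters overlapped. All other clusters were at a mean of 1.08 to 2.75, and the gap between cluster 4 and the next, cluster 6, exceeded the larger SD. Junb, an AP-1 subunit that can oppose Jun, was at 20.7, 27.8, 20.3 and 12.96 in cluster 3 and at 21.2, 18.8, 12.8 and 9.09 in cluster 4. In the choroid plexus-like cells Junb was at 2.16, 1.79, 1.87 and 2.42, the lowest mean of the 11 clusters (cluster 10 was lowest with summed UMIs).

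Fosb had its highest mean of cells in the endothelial-like cluster 4, but with UMIs summed over cells it was higher in cluster 3 in 3 of 4 brains. As cell means it stood in cluster 4 at 4.74, 3.68, 2.58 and 2.53 per 10000, against 3.896, 3.57, 2.1 and 1.52 in cluster 3, lower in cluster 3 within each brain on this scale only. Atf3, a stress-induced repressor of the same protein class, leaned the other way, with 6.18, 5.75, 3.41 and 2.16 in cluster 3 and 2.47, 1.78, 0.746 and 1.2 in cluster 4. Of the 10 genes, 3 (Jun, Btg2 and Atf3) were higher in cluster 3 than in cluster 4 in all 4 brains, and with summed UMIs 6, with Fos, Junb and Egr1 added.

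Egr1 followed Fos and reached 7.64, 11.96, 8.23 and 4.35 per 10000 in cluster 3. Its next levels were 8.71, 6.20, 3.47 and 3.14 in cluster 4 and 4.36, 4.71, 2.90 and 4.0 in the choroid plexus-like cells, whose ranges overlapped. Egr1 was higher in cluster 4 than in cluster 1 in 3 of 4 brains, but in 1 of 4 with summed UMIs, and the other 9 genes were in all 4. With summed UMIs Fos and Dusp1 were higher in 3 of 4 and the remaining 7 genes in all 4. Dusp1, which removes phosphates from MAP kinases and so acts as a brake on the signal that induces it, was at 10.8, 14.8, 15.7 and 9.38 in cluster 3. It was at 13.7, 10.33, 7.18 and 5.41 in cluster 4 and at 5.27, 5.72, 3.80 and 4.53 in cluster 1. Fos, Jun, Egr1, Btg2 and Dusp1 were higher in cluster 1 than in cluster 0 in all 4 brains.

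Btg2 had a mean of 6.24 ± 2.21 per 10000 in cluster 3 and 3.34 ± 1.40 in cluster 4 (SD, n = 4), with a gap above the larger SD. Ier2 had 8.30 ± 3.08 and 7.44 ± 3.27 (SD, n = 4), a gap within it. Below these 2 clusters neither gene had a mean above 3.00.

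Rhob, which encodes a small GTPase of endosomes, had a different order. Cluster 3 led with 9.83, 11.8, 4.56 and 3.35 per 10000, and cluster 4 followed with 5.55, 4.93, 3.18 and 4.10. The next places were taken by the Rhox5-rich clusters 10, 7 and 0, with means of 3.10, 3.08 and 2.85 (with summed UMIs clusters 0, 10 and 7, in that order), although Fos was at means of only 1.19, 3.91 and 3.47 there. Rhob was lowest in the choroid plexus-like cells, at 0.664, 0.565, 0.953 and 1.37 where cluster 0 had 2.54, 1.66, 3.17 and 4.01. Cluster 0 was above cluster 1 in every brain for Rhob alone of the 10 genes, by a geometric mean ratio of 3.23 (2.92 to 3.83 over the 4 brains), whereas that ratio was 0.367 for Fos.

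**Figure D1:**
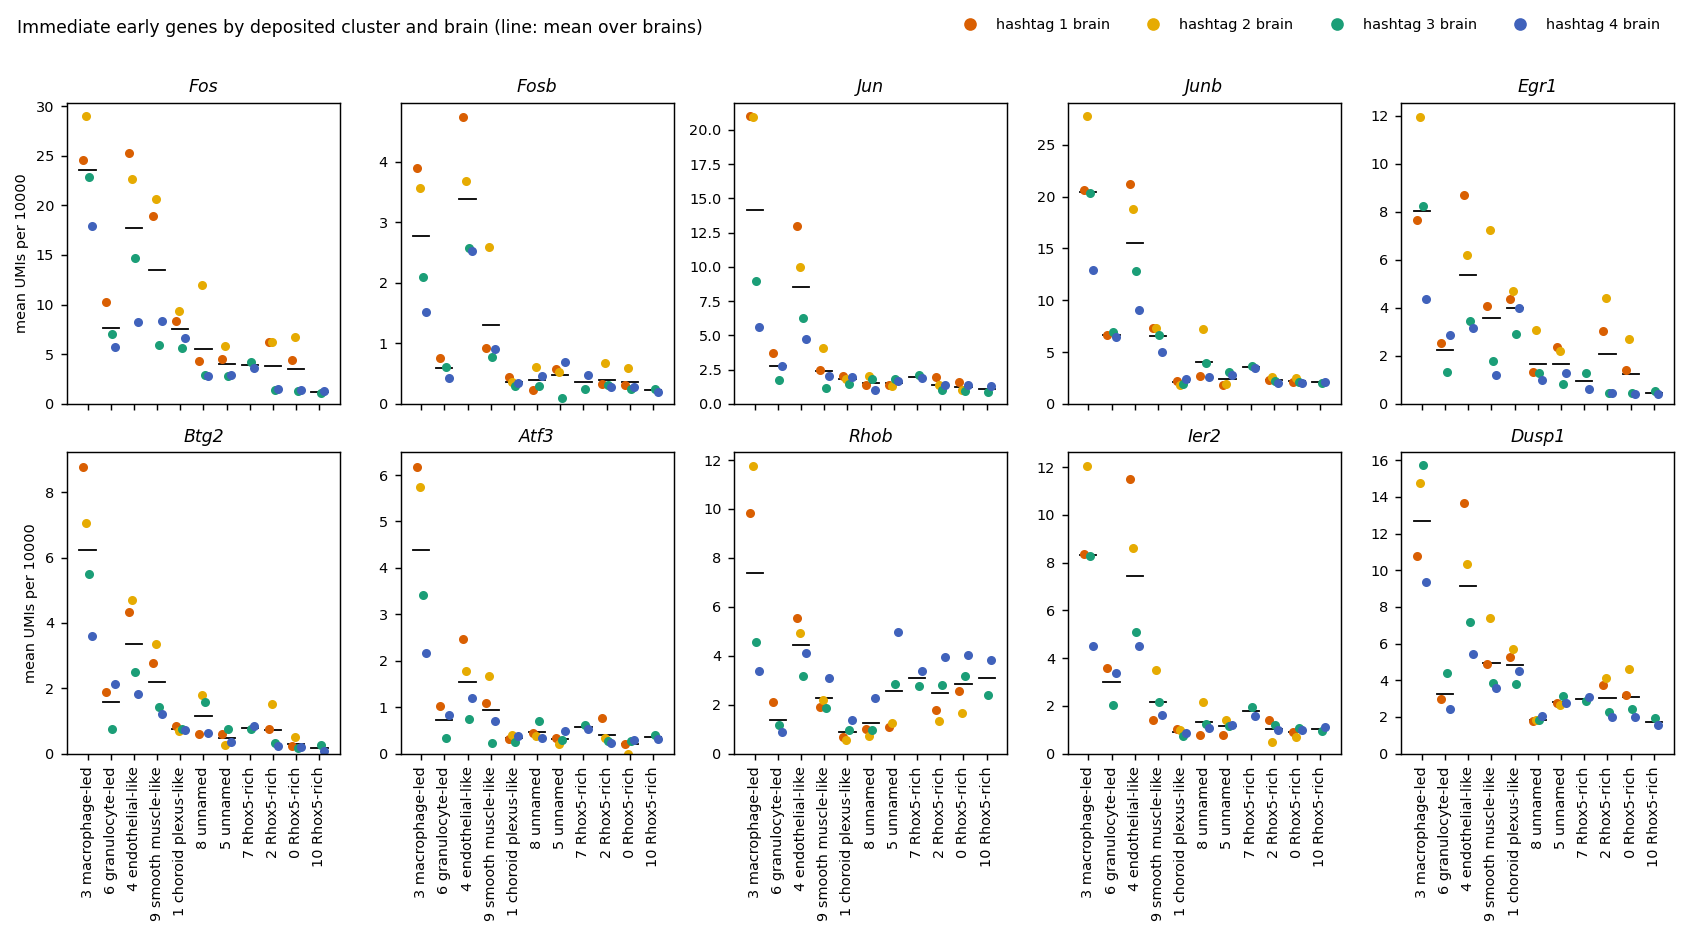
Mean UMIs per 10000 of each gene (vertical axis, linear, its own scale per panel) in the 11 clusters (horizontal axis). Points are brains with at least 10 cells of the cluster, coloured by hashtag, and black lines are means over brains. The 2 columns that stand out are cluster 3 and cluster 4. In the Rhob panel the Rhox5-rich clusters have means of 2.47 to 3.10, above the 0.889 of the choroid plexus-like cells. Their means also lie above those cells for Junb and Ier2, but only slightly in clusters 0, 2 and 10.

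Within the leading clusters the 4 brains differed for the 10 genes together. The summed level of the 10 genes in cluster 3 was 121.7, 144.6, 99.98 and 65.3 per 10000 in the brains with hashtags 1 to 4, and each of the 10 genes was lower in the hashtag 4 brain than in any other. In cluster 4 the sums were 110.4, 91.8, 58.5 and 44.8, and each of the 10 genes was higher in either of the brains with hashtags 1 and 2 than in either of those with hashtags 3 and 4. The share of all genes with such an order of brains is not given, so these counts describe the 10 genes only. The choroid plexus-like cells of the same brains had sums of 25.5, 26.5, 18.7 and 23.2, a narrower spread. Other measures differed between the brains as well. Microglia-like cells made up 23.8%, 50%, 1.94% and 5.15% of cluster 3 in the 4 brains. Median UMIs per cell in cluster 4 were 3256, 3088, 4015 and 8892, its Ttr level was 717.2, 728.1, 350.6 and 359.2 per 10000, and its level of the heat shock gene Hspa1a was 0.834, 0.365, 0.255 and 0.0674. The part of these measures in the brain differences was not tested, and no brain can be assigned to a condition.

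In clusters 0 and 2 Fos and Egr1 were higher in the hashtag 1 and 2 brains, where Ttr was higher too. Egr1 in cluster 0 was at 1.40, 2.68, 0.433 and 0.399 per 10000 in the brains with hashtags 1 to 4. In cluster 0 the hashtag 1 and 2 brains had Ttr at 1606 and 2244 per 10000 and Fos at 4.44 and 6.78, whereas the hashtag 3 and 4 brains had Ttr at 157.7 and 133.3 and Fos at 1.27 and 1.41. Cells of cluster 0 in these brains drew a median of 67.3%, 60.7%, 89.5% and 95.1% of hashtag counts from the hashtag they were assigned to. The smooth muscle-like cluster 9 was alike, with Ttr at 1536, 1900, 503.6 and 334.8 and Fos at 18.9, 20.6, 5.93 and 8.33. Those Fos levels of the hashtag 1 and 2 brains lay above the 5.67 to 9.39 of the choroid plexus-like cells themselves. Rhob in cluster 0 ran the other way, as given above. The part of choroid plexus RNA in these levels was not tested.

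**Figure D2:**
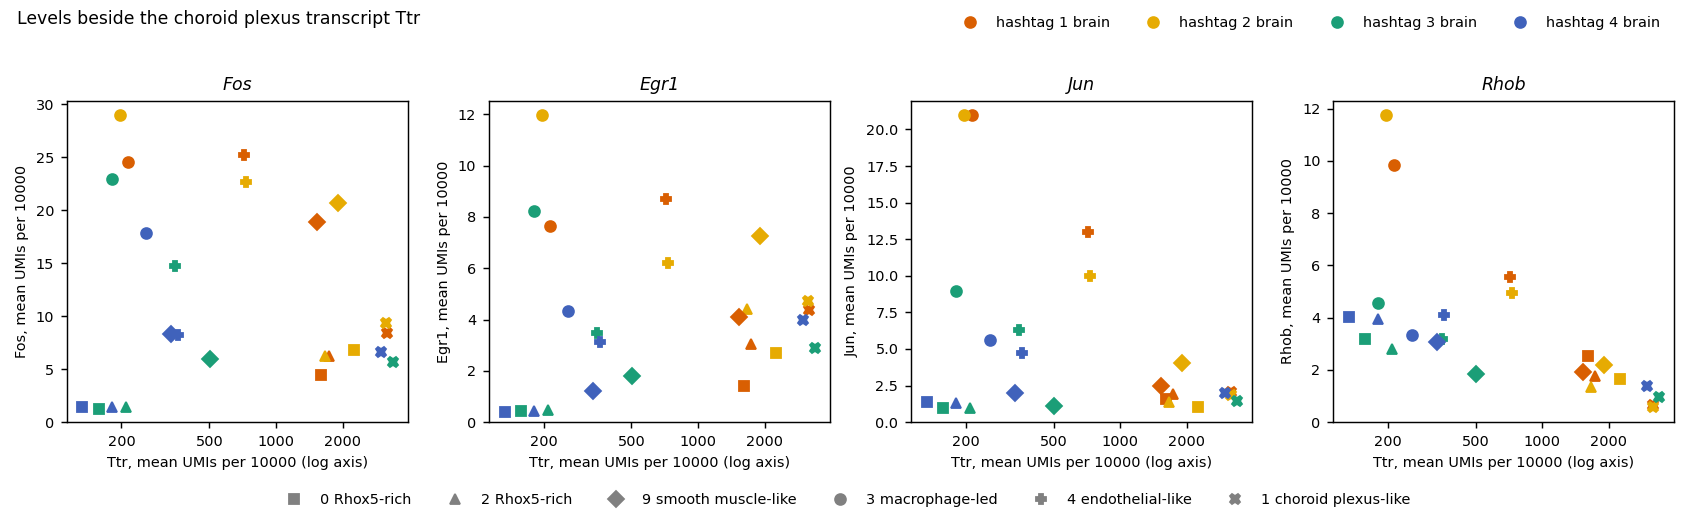
Level of 4 of the genes (vertical axes, UMIs per 10000, linear) against the level of Ttr (horizontal axes, UMIs per 10000, log scale) in 6 clusters, 1 point per cluster and brain. Colour gives the hashtag and shape the cluster. In clusters 0 and 2 (squares and triangles) Fos and Egr1 are near the axis where Ttr is low, and in cluster 3 (circles) they are high at low Ttr.

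The genes were also counted cell by cell. To compare cells of unequal depth, each was thinned at random to 2495 UMIs, the total of the shallowest cell, so that no cell was left out. At that depth the median cell of cluster 3 showed 7 of the 10 genes and the median endothelial-like cell 6. Clusters 6 and 9 had medians of 4, clusters 1, 5 and 7 of 3, and clusters 0, 2, 8 and 10 of 2. At least 5 of the 10 genes were seen in 81.7% of cells of cluster 3 and 64.4% of cluster 4, but in 19.5% of the choroid plexus-like cells and 6.49% of cluster 0. The medians by brain were 9, 9, 8 and 6 in cluster 3 and 7.5, 7, 5 and 4 in cluster 4, which is the order of the summed levels in the latter.

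A Fos UMI was seen in 95.5% of thinned cells of cluster 3 (97.8% of unthinned ones; exact binomial 95% interval of the thinned share 93.0% to 97.3%). The shares were 78.3% in cluster 4, 66.8% in cluster 1 and 27.9% in cluster 0, against 91.9%, 87.0% and 77.2% before thinning, when the median depths were 3896, 7283 and 13009 UMIs. The lowest share was 25.6% of thinned cells in cluster 10 (43.6% before, at a median of 6274 UMIs). No cell type of the pool is known to lack Fos, so no background share could be set. Low shares such as that of cluster 10 are therefore read neither as presence nor as absence of expression. These intervals cover counting error only.

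**Figure D3:**
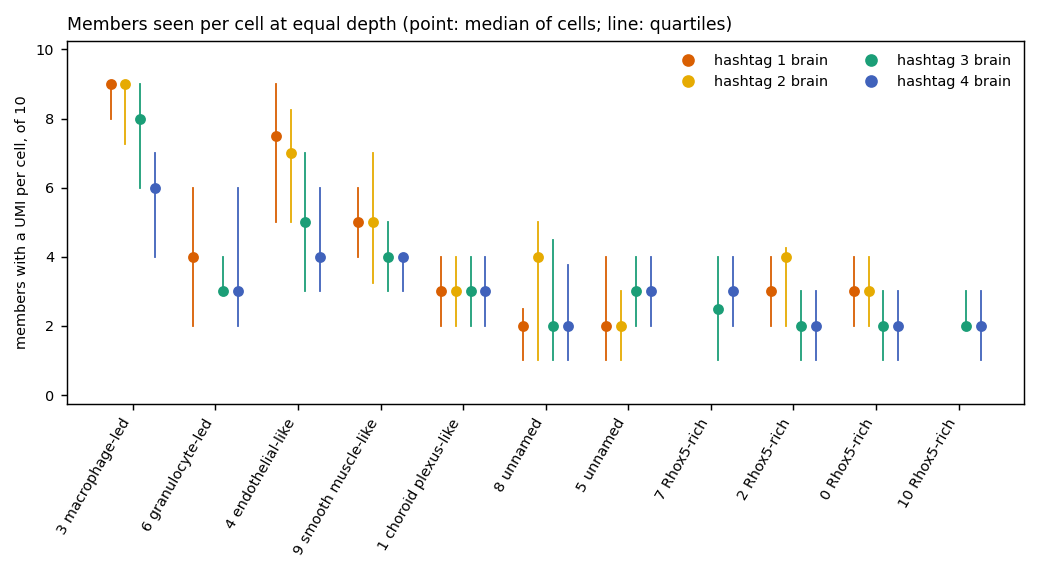
Number of the 10 genes with at least 1 UMI in a cell (vertical axis, 0 to 10) after thinning every cell to 2495 UMIs, by cluster (horizontal axis). Points are medians over the cells of 1 brain and lines run between the quartiles. Cluster 3 lies at 6 to 9 genes and cluster 4 at 4 to 7.5, while the choroid plexus-like cells lie at 3 in each brain.

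Across 39 profiles of a cluster in a brain, the 45 pairs of genes had a median Pearson r of 0.81 on the log2 scale. The closest pair was Junb with Ier2 (r = 0.95), and Fos went with Egr1 (r = 0.93). Rhob stood apart with a median r of 0.52, down to 0.04 with Egr1. These profiles share brains and 1 library, so the coefficients are descriptions without a p.

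Within a cluster the genes varied together in some cell types more than in others. Among thinned endothelial-like cells of a single brain, the median Spearman coefficient over the 45 pairs was 0.44, 0.38, 0.34 and 0.32 in the brains with hashtags 1 to 4 (72, 56, 81 and 86 cells). Jun with Junb had the highest median over brains, 0.68 (0.34 to 0.73), followed by Jun with Ier2 and Junb with Ier2. In cluster 3 the median was 0.21 and 0.26 (hashtags 3 and 4, the 2 brains with enough cells), with Egr1 and Rhob as the leading pair. In the choroid plexus-like cells it was 0.10, 0.04, 0.05 and 0.02, yet 3 pairs stood out there, formed by Fos, Egr1 and Dusp1. Fos with Egr1 had a median coefficient of 0.35 (0.27 to 0.49 over 4 brains), Fos with Dusp1 also 0.35 and Egr1 with Dusp1 0.32. Low counts lower such coefficients, and the genes are less abundant in cluster 1 than in cluster 4.

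The one contrast of cell types that did not rest on the RNA clusters was that of the CD45 tag, an antibody to the surface protein of leukocytes. In each brain, cells with at least 300 CD45 tag counts (230, 75, 255 and 351 cells) were set against the other cells (614, 335, 1130 and 1678 cells). Of the tagged cells 74.8%, 57.3%, 70.6% and 60.1% lay in the immune clusters 3 and 6. The rest lay in the other clusters, so the tagged group is not made up of leukocyte clusters alone. Ptprc, which encodes CD45, was at 1.37 to 1.78 per 10000 in tagged cells and at 0.0457 to 0.110 in the others. In this test 6 of the 10 genes were higher in tagged cells and 0 were lower (limma on log2 of the level plus 0.1, Benjamini-Hochberg adjusted p below 0.05 over 9355 genes). Among all genes tested, 7.6% passed as higher and 2.94% as lower. The median log2 difference was 1.53 for the 10 genes and -0.06 for all genes, and 10 of 10 had an unadjusted p below 0.05.

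Btg2 was at 2.72, 4.46, 3.89 and 2.75 per 10000 in tagged cells and at 1.11, 1.38, 0.512 and 0.350 in the other cells of the brains with hashtags 1 to 4. The 2 groups did not overlap, and the log2 difference was 2.06 (SE 0.28; limma adjusted p = 0.00316). Atf3 was at 1.54, 3.37, 2.43 and 1.56 against 0.604, 0.587, 0.292 and 0.345, a difference of 2.04 (SE 0.25; limma adjusted p = 0.00177). Neither group overlapped for Jun, Junb or Ier2 either, with differences of 1.60 (SE 0.25), 1.76 (SE 0.28) and 1.56 (SE 0.24) and limma adjusted p-values of 0.00648, 0.00641 and 0.00573. Groups without overlap were found for 6 of the 10 genes, against 18.5% of all genes. Fosb passed narrowly, by 1.01 (SE 0.26; limma adjusted p = 0.0480), and its groups overlapped.

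The other 4 genes did not pass. Fos was at 11.8, 18.5, 17.3 and 13.4 per 10000 in tagged cells and at 9.17, 11.6, 2.89 and 2.45 in the others, a log2 difference of 1.49 (SE 0.41; limma adjusted p = 0.0560) made up of 0.36, 0.67, 2.54 and 2.40 in the 4 brains. The tagged levels spanned 11.8 to 18.5 and those of the other cells 2.45 to 11.6. Egr1 had differences of -0.15, 0.57, 2.36 and 1.61, and Dusp1 of -0.28, 0.77, 1.95 and 1.56, with limma adjusted p-values of 0.107 and 0.112. Rhob differed most in the brains with hashtags 1 and 2, with 1.12, 2.28, 0.49 and -0.28 (adjusted p = 0.161 by limma). The make-up of the other cells also differed between brains. Clusters 0, 2, 7 and 10 held 14.0%, 9.55%, 69.2% and 74.0% of them and the choroid plexus-like cluster 44.0%, 57.9%, 15.5% and 10.7%. Tagged cells had median totals of 3876, 3502, 4206 and 4471 UMIs, against 4671, 5924, 13823 and 13706 in the other cells. Their Ttr was at 521.7, 683.7, 282.9 and 396.2 per 10000, against 2454, 2570, 772.4 and 534.7. Median mitochondrial shares were 2.57%, 2.08%, 2.07% and 1.95% in tagged cells and 7.98%, 8.96%, 1.45% and 1.41% in the others. The tagged cells were thus shallower and lower in Ttr in each brain, and lower in mitochondrial share in the brains with hashtags 1 and 2 only. The part of these measures in the differences was not tested. With each of the other clusters weighted equally within a brain, 8 of the 10 genes were higher, all but Fosb and Rhob.

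**Figure D4:**
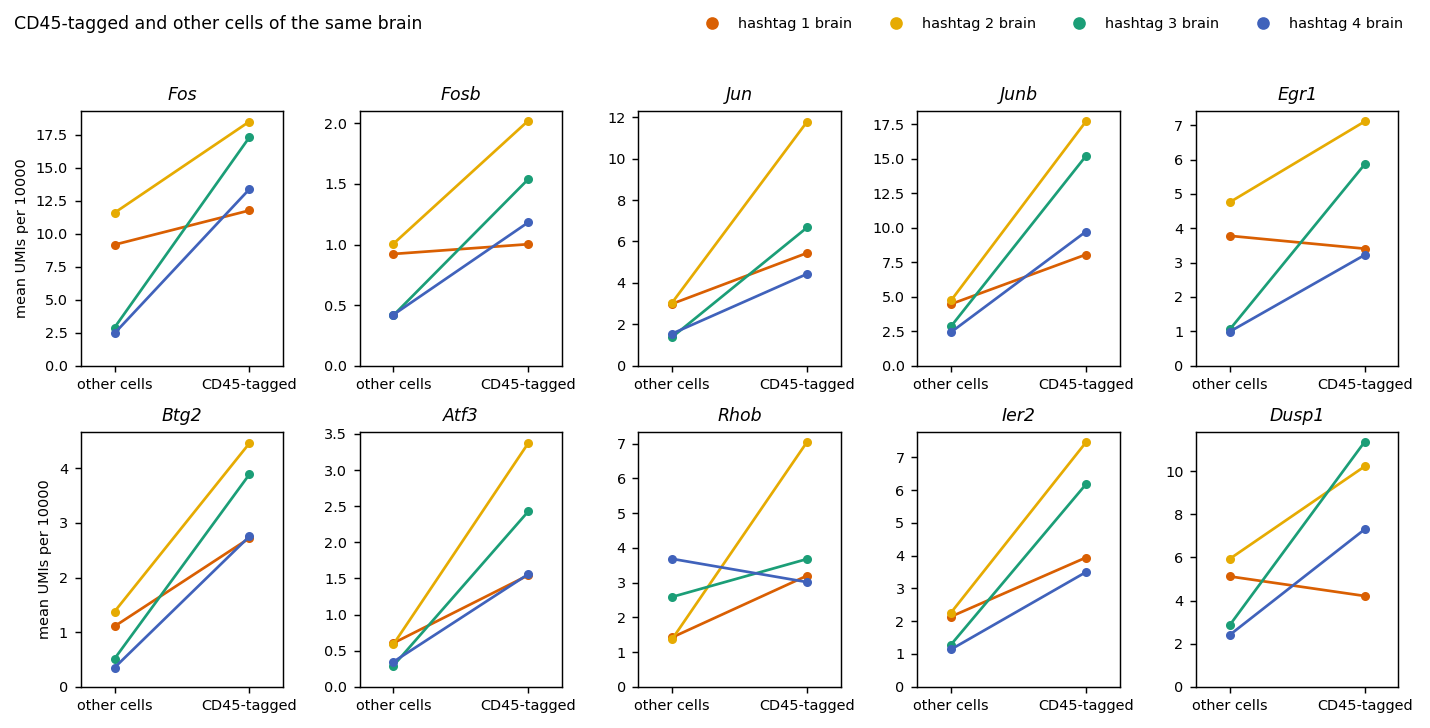
Mean UMIs per 10000 of each gene (vertical axes, linear) in cells without and with at least 300 CD45 tag counts (horizontal axes). Each line joins the 2 groups of cells of 1 brain. For Btg2, Atf3, Jun, Junb and Ier2 all 4 lines go up, for Egr1 and Dusp1 the hashtag 1 line goes down, and for Rhob the hashtag 4 line goes down.

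The call depended on what the tagged cells were set against. Against the other cells of the endothelial-like cluster 4 alone, an alternative added after the data were seen, 0 of the 10 genes passed as higher in limma and 1 was lower, Fosb by -1.18 (limma adjusted p = 0.00092). Against the choroid plexus-like cluster 1 alone, also added after the data were seen, 9 of 10 were higher. The shares of all genes given above are those of the main fit. Those under the alternatives are not given here, so a changed count may also reflect a change over all genes. With only those cells in which at least 80% of hashtag counts belonged to the assigned brain, 2 of 10 were higher, Btg2 and Atf3. The differences of the 4 genes that lost the call there were 1.26 for Jun, 1.46 for Junb, 1.21 for Ier2 and 0.79 for Fosb, with limma adjusted p-values of 0.0712, 0.0624, 0.0720 and 0.256. Without the hashtag 2, the hashtag 3 or the hashtag 4 brain Fosb no longer passed, and without the hashtag 4 brain Rhob did (1.295, limma adjusted p = 0.0175).

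Among the immune cells themselves, 9 of the 10 genes had their highest mean in microglia-like cells, and Dusp1 in marrow-derived-like cells, where 14.5% of all 9284 genes tested had theirs in microglia-like cells. The 627 cells of clusters 3 and 6 were clustered again on 107 marker genes that include none of the 10, and classes were named from their markers. The microglia-like class had 35 cells with all 10 of 10 microglia markers, although the antibody gene Igkc was also among its leading genes. It reached 10 cells only in the brains with hashtags 2 (17 cells) and 4 (10 cells), so the class means are over different brains. Jun was at 27.9 and 24.6 per 10000 in these 2 brains, against 8.27 and 6.48 in the marrow-derived-like macrophages and monocytes of the hashtag 3 and 4 brains. In neutrophil-like cells Jun was at 5.82, 4.43 and 3.25 (hashtags 1, 3 and 4). Rhob was at 15.5 and 12.7 in microglia-like cells, 2.96 and 3.79 in marrow-derived-like cells and 3.64, 4.01 and 2.79 in neutrophil-like cells. Egr1 was at 15.9 and 13.6, against 7.68 and 4.85 in marrow-derived-like cells. For 8 of the 10 genes, all but Fos and Dusp1, both microglia-like values were above both marrow-derived-like values, as they were for 15.7% of all genes tested. In limma 0% of all genes passed as higher in this contrast.

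Fos and Dusp1 did not show this pattern. Fos was at 30.5 and 23.0 per 10000 in microglia-like cells and at 26.4 and 21.5 in marrow-derived-like cells, and Dusp1 at 13.8 and 11.2 against 17.3 and 11.5, with overlapping values. In the hashtag 4 brain, the one with at least 10 cells of both classes, summed UMIs gave Jun 25.4 per 10000 (133 UMIs; exact Poisson 95% interval 21.3 to 30.1) in microglia-like and 6.597 (124 UMIs; 5.49 to 7.87) in marrow-derived-like cells. Fos gave 24.7 (20.6 to 29.3) and 21.2 (19.1 to 23.4) there, intervals that overlap. Too few for a profile, 5 microglia-like cells with hashtag 1 and 3 with hashtag 3 held Jun at 40.2 and 16.5 per 10000.

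No gene of the 10 passed in limma in the contrasts of microglia-like cells with another class. All 10 log2 differences were positive in each contrast, as were those of 34.3% of all genes. Their median was 1.34 against marrow-derived-like cells, 1.78 against neutrophil-like cells and 1.60 against T cell-like cells. For all genes the medians were -0.09, 0.056 and -0.06. Higher at an unadjusted p below 0.05 were 7, 8 and 8 of the 10 genes, against 2.99%, 7.12% and 3.74% of all genes. The limma adjusted p-values ran from 0.352 to 0.9996, from 0.0504 to 0.783 and from 0.0736 to 0.711. Of all 9284 genes tested, 0%, 0.0754% and 0.0108% passed as higher in these contrasts. Jun had the lowest adjusted p in each, with differences of 2.11 (SE 0.57), 2.68 (SE 0.55) and 2.84 (SE 0.57).

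At the other end were the granulocyte progenitor-like cells, of which only the hashtag 1 brain had at least 10 (46 cells). Fos was at 6.15 per 10000 there, Btg2 at 0.861, Dusp1 at 1.21 and Atf3 at 0.135. The neutrophil-like cells of the same brain had Fos at 13.6, Btg2 at 2.95, Dusp1 at 5.03 and Atf3 at 2.14. A class led by Spp1, a matrix glycoprotein of tissue macrophages, was left unnamed and differed between the brains with hashtags 3 and 4, with Junb at 23.6 and 11.1 and Dusp1 at 16.3 and 7.99.

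**Figure D5:**
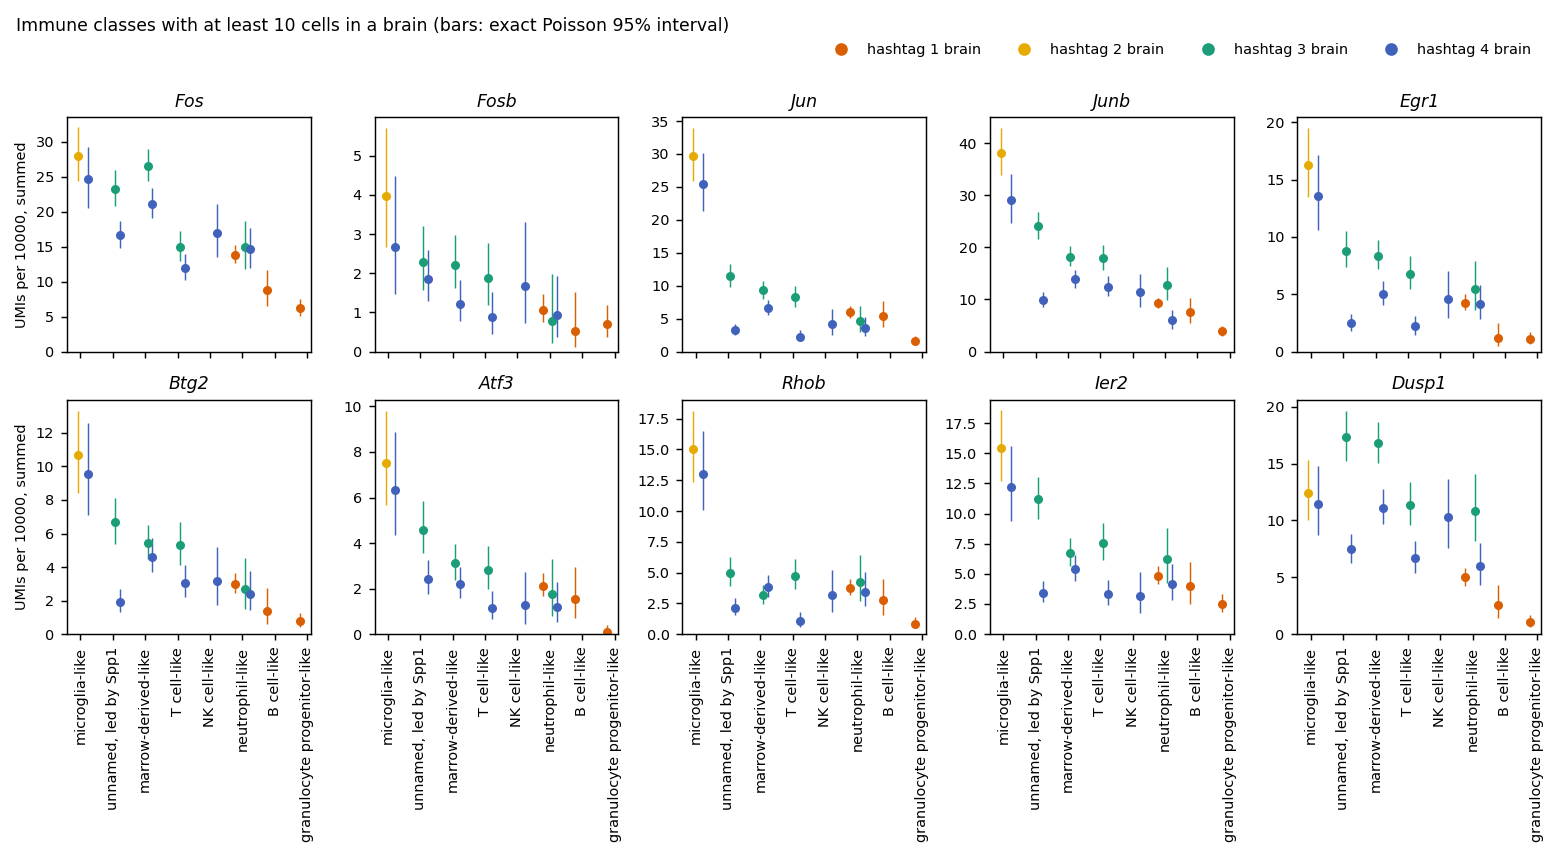
UMIs per 10000 summed over the cells of a class in a brain (vertical axes, linear), by immune class (horizontal axis), for classes with at least 10 cells in that brain. Bars are exact Poisson 95% intervals and cover counting error only. The 2 microglia-like points lie above all other plotted points for 8 of the genes but not for Fos or Dusp1, and so they do for 2.62% of all genes tested.

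Other genes of the early response were read from 7 lists in the same CD45 contrast. Of 8 other AP-1 subunits tested 3 were higher and 0 lower in tagged cells, among them Fosl2 by 0.98 and Batf by 0.75 in log2. Of 7 other early zinc finger genes 4 were higher and 0 lower, including Klf6 by 1.82 and Zfp36, which encodes a protein that destabilises cytokine mRNAs, by 1.75. In the NR4A family of nuclear receptors 1 of 2 was higher, Nr4a1 by 1.59. The list of phosphatases and other signal brakes had 9 of 19 higher and 0 lower, with the G protein regulators Rgs1 and Rgs2 at 3.16 and 2.66. Among further early response genes 8 of 25 were higher and 0 lower, with the kinase gene Pim1 at 2.75 and Btg1, the relative of Btg2, at 2.25. Several of these are also known as genes of leukocytes.

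Heat shock genes, which are induced in dissociated tissue as well, were read in the same contrast. Of 9 tested 1 was higher, Dnajb1 by 0.80, and 1 lower, Hsph1 by -0.70, and the list's median was -0.23. By cluster, 3 of these 9 had their highest mean in cluster 3 or 4, beside 28.5% of all genes. Hspa1a had its highest mean in cluster 5, 0.516 per 10000, from 0, 0.125, 0 and 1.94 in the brains with hashtags 1 to 4. That mean thus rests mainly on the hashtag 4 brain. Hspa1a was at 0.486, 0.543, 0.391 and 0.289 in cluster 3, against 0.0729, 0.0710, 0.0872 and 0.0457 in cluster 1. The part of dissociation in any of these levels was not tested. Of 15 kinases and factors that act upstream of the early genes 2 were higher and 0 lower, Rps6ka1 by 1.55 and Mapk14 by 0.96. The share of all genes that passed as higher is the 7.6% given above.

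The genes outside the 10 whose level over the 39 profiles was most like the mean of the 10 were led by Zfp36 (Pearson r = 0.97). It was at a mean of 7.56 per 10000 in cluster 3, 5.98 in cluster 4 and 1.19 in cluster 1. Serinc3, Ccnl1, Nfkbiz, Pnrc1, Mef2c, Jund, Itm2b and Sepp1 followed with r from 0.92 down to 0.88. Zfp36, Nfkbiz and Jund were on the lists of early response genes above.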

How the data were processed

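Gene values, cell totals, tag counts, hashtag classes and cluster numbers came from one pool of cells with a cDNA, an antibody tag and a hashtag library. The authors deposited each gene as a natural log, of 1 + UMIs scaled to 10000 per cell. The submitters' processing notes list Cell Ranger 2.1, Seurat 2.3.4 and mm10 but not what each was used for, and any filtering of barcodes or transcripts is not stated there. Total UMIs, hashtags and the CD45 tag were deposited as counts (tags by CITE-seq-Count, according to the design text), and the mitochondrial share was deposited by the authors as a fraction. Values were unlogged, and multiplied by each cell's total they gave whole UMI counts for 99.8% of non-zero entries (within 0.01).

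The brain (hashtag class) was the replicate. Nothing in the labels describes the brains beyond their hashtag. In the CD45 contrast the p-values rest on the spread, over these 4 brains, of the difference within a brain. That spread includes any difference between naive and metastasis-bearing brains. In the class contrasts the microglia-like profiles came from the hashtag 2 and 4 brains only. The error there was pooled over the profiles of all classes (7 residual degrees of freedom). limma 3.58.1 in R 4.3.3, with a trend on mean level and a block for brain, since both groups of cells came from the same animal, was run on log2 of the mean level plus 0.1. Genes seen in at least 5% of cells were tested, with profiles of at least 20 cells for the CD45 contrast and 10 for immune classes, and p-values were adjusted by Benjamini-Hochberg. Immune cells were clustered with scanpy 1.11.5 (15 principal components, 15 neighbours, Leiden resolution 1), and the markers were left out of the genes tested. The fit was tested on simulated data. Alternatives were other pseudocounts, filters, tag thresholds, scalings and cell selections, edgeR 4.0.16 and DESeq2 1.42.0 on summed UMI counts, no block, and each brain left out. The 10 genes, the related lists and the tests were chosen with earlier results of these data known. Beside the 10 genes, the text names up to 3 passing genes per list and direction with the largest change, and the 10 genes most correlated with the mean of the 10, less a few genes that are not reported here.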

Additional observations from a re-analysis of the deposited data

Results flagged for a closer look

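Of 80 sets of 4 brains (a gene in a cluster), 4 had a brain whose gap to the nearest other brain was large for the range of the set by Dixon's criterion, where chance flags about 1 in 20. All 4 were highest in the hashtag 2 brain. In cluster 8 Fos was at 12.01 per 10000 in that brain, against 4.29, 2.90 and 2.85 in the other brains (hashtags 1, 3 and 4). The value of Egr1 in cluster 8 was at 3.05 there, against 1.33, 1.296 and 0.989. These 2 values come from the same 17 cells and from 88 and 22 UMIs. Fosb was at 0.668 in cluster 2 of that brain (24 cells, 11 UMIs), against 0.325, 0.307 and 0.276. Fosb in cluster 9 was at 2.59 (14 cells, 13 UMIs), against 0.914, 0.771 and 0.900.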

How the results depend on the processing

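The count of genes higher in CD45-tagged cells, 6 in the main fit, was 5 to 8 under 14 of the 15 alternative analyses of all 4 brains (5 with edgeR, 7 with DESeq2, 5 without the replicate block), and 5 to 6 with 1 brain left out. It was 2 with cells of at least 80% own hashtag, where Fosb, Jun, Junb and Ier2 lost the call. Fosb lost it in 10 of these 15 alternatives, and Btg2 and Atf3 in none. Against cluster 4 alone (chosen after seeing the data) 0 genes were higher and 1 lower, and the differences turned negative for 8 genes, at -0.027 for Fos, -1.18 for Fosb, -0.20 for Jun, -0.22 for Junb, -0.0496 for Egr1, -0.11 for Rhob, -0.39 for Ier2 and -0.12 for Dusp1, with Btg2 at 0.19 and Atf3 at 0.62. Against cluster 1 alone, or without clusters 0, 2, 7 and 10 (both also chosen after seeing the data), 9 were higher. The shares of all genes that passed under these alternatives are not given here. For microglia-like against neutrophil-like cells 1 gene passed with a pseudocount of 1 and 1 without the replicate block (Jun in both), and 0 to 1 with a brain left out. Against T cell-like cells 2 passed with a pseudocount of 1 (Jun and Egr1). Dusp1 in microglia-like minus marrow-derived-like cells was 0.016, turned to -0.18 without the block, and ranged from -0.037 (without the hashtag 3 brain) to 0.016 with a brain left out. The causes were not tested. Class contrasts with 80% own hashtag or without the hashtag 4 brain could not be fitted, since too few profiles remained. The summed level of the 10 genes in cluster 7 was 19.9, but 12.6 from summed UMIs and 17.6 with 80% own hashtag, and in cluster 5 it was 17.4 and 20.01 with 80% own hashtag. Thinning moved the share of cells with a Fos UMI from 77.2% to 27.9% in cluster 0, 87.0% to 66.8% in 1, 88.8% to 30.7% in 2, 97.8% to 95.5% in 3, 91.9% to 78.3% in 4, 61.1% to 44.7% in 5, 80.3% to 72.2% in 6, 96.2% to 36.8% in 7, 53.0% to 37.8% in 8, 95.7% to 73.5% in 9 and 43.6% to 25.6% in 10. The microglia-like values rest on 17 and 10 cells.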
